A study of Mus musculus with 6 samples.

Results

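Expression of 39 genes of the autophagy core machinery and its lysosomal regulators was examined in mouse hearts during endotoxemia. The genes were taken by name, from the kinases that start autophagy to the membrane proteins of the lysosome, and were found on the array through the transcript accession of their probes. All 39 were among the 22815 genes to which a symbol could be given. All 39 were also well above background on each of the 6 arrays, so that the filter on dim probes, which left 14701 genes for testing, removed none of them. The hearts came from male C57BL6 mice aged 10 weeks. Each mouse was starved for 16 h and then received 20 mg/kg lipopolysaccharide (LPS), a bacterial cell wall component, into the peritoneum. At 3 h and 24 h after LPS, 3 mice were given saline and 3 were given recombinant human thrombomodulin (rhTM), a soluble drug form of the endothelial receptor for thrombin. Total RNA was taken from the heart at 30 h, and 1 array was hybridised per mouse. Starvation and LPS were common to both groups, so every value below compares rhTM with saline after the same fast and the same LPS dose, and no heart without LPS was analysed here.

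Autophagy encloses cytoplasm in a double membrane, the autophagosome, and delivers it to the lysosome for breakdown. A kinase complex around ULK1 starts the process, a lipid kinase complex around beclin 1 marks the membrane, and 2 ubiquitin-like conjugation systems attach proteins of the Atg8 family, such as LC3, to its lipids. Heart muscle depends on autophagy to remove damaged mitochondria and to survive fasting, and many of its genes are under the control of the transcription factor TFEB, which binds E-box sequences (CACGTG) in their promoters. Transcript levels do not measure the flow of cargo through the pathway, which is largely set by protein modification.

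The E-box sites of the members are shown because TFEB, itself a member, acts through this motif. RefSeq promoters of build GRCm38.p6, from 250 bases before to 50 bases after a gene's start, were on hand for 33 of the 39 members. The letters CACGTG, which read the same on both strands, occurred in the promoters of 5 members. That was 5 of 38 member promoters (13.2%), against 7.15% of all 32851 promoters. In Atg14 the match lay after the start. The other matches are printed 5′ to 3′ on the strand of the gene, with CACGTG in capitals:
Lamp1, chr8:13159075-13159160, plus strand: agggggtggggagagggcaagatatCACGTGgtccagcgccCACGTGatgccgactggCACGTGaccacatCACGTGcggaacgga
Atg3, chr16:45158710-45158788, plus strand: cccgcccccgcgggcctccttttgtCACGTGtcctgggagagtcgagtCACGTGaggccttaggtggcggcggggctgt
Atg5, chr10:44268300-44268338, plus strand: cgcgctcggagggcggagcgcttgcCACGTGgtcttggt
Atg7, chr6:114670939-114670994, plus strand: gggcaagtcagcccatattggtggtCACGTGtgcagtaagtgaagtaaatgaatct
The Lamp1 promoter held 4 matches and the Atg3 promoter 2. The longer palindrome known as the CLEAR element, which contains the E-box, was searched letter for letter in a fixed spelling. The FoxO core GTAAACA was searched in the same way, and both searches covered both strands. Exact matches to the CLEAR spelling and to the FoxO core were in none of the member promoters and in 0.326% and 3.65% of all promoters. Other spellings of the CLEAR element were not searched, so its absence from the member promoters cannot be concluded. A match describes the letters in this window and no binding was measured.

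The arrays were not alike within the groups. Saline 1 and 2 were on slide 1 (scan 1), and saline 3 shared slide 2 (scan 2) with all rhTM arrays. Genes are not independent replicates, and as a description over them the correlation was 0.987 between saline 1 and 2, 0.942 and 0.939 between these and saline 3, and 0.965 between saline 3 and rhTM 3. On each array 54.8% to 62.8% of 59305 spots exceeded background clearly, and 0 spots were saturated. The heart label was borne out by the cardiomyocyte markers, of which all 14 (Myh6, Tnnt2, Ttn and others) were well above background on every array. Signals below are on the log2 scale with 0 at the array's own 75th percentile. Each gene is read from its brightest probe. A difference subtracts the saline mean from the rhTM mean (n = 3 each) and carries the SE that limma fitted. In whole tissue, a lower signal from fewer cells of a type and one from less RNA per cell cannot be told apart.

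No member passed the test at an adjusted p under 0.05 (limma, adjusted over all 14701 genes). Their adjusted p-values ran from 0.0521 to 0.994. Over all genes 2.75% were called higher (405) and 2.41% lower (355), shares that come to about 1 gene of 39 in each direction. That split moved with the scaling, since 53.3% of the calls were higher here and 64.3% when arrays were centred on the median of the genes tested. At limma's unadjusted p under 0.05, 2 members lay higher (Atg10 and Atg12), or 5.13% against 15.1% of all genes. Another 5 lay lower (Atg13, Sqstm1, Becn1, Atg2b and Atg7), or 12.8% against 15.6%. In 3 members (7.69%, against 17% of all genes) every rhTM array lay above every saline array, and in 6 (15.4%, against 18.7%) every one lay below. The member differences lay between -0.98 and 0.92. Their median size was 0.30, against 0.46 over all genes tested. No member differed by 1 log2 unit, whereas 9.97% of genes were higher and 6.98% lower by at least that much. The signed median was -0.07, against 0.01 over all genes, with 23 members lower (59%, against 49.2% of genes) and 16 higher (41%, against 50.8%).

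That count rested on which saline hearts were used. Without saline 3, 4 members were called higher and 14 lower, in a fit that called 20.5% and 19.1% of all genes. Leaving out both arrays numbered 3 gave 6 and 15 members, where 26.9% and 26.3% of genes were called. Both of these fits set saline arrays of slide 1 against rhTM arrays of slide 2. Treatment therefore cannot be told apart from slide in them. A fit blocked by slide sets the rhTM arrays against saline 3 alone, and it called 1 member higher (Atg10) and 0 lower, against 3.83% and 1.95% of genes. At limma's unadjusted p under 0.05 this blocked fit held 3 members higher (16.3% of genes) and 0 lower (14.5%). With the replicate number as the block instead, 0 members were called in either direction, where 2.43% and 1.65% of genes were.

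Other ways of processing the arrays gave 0 or 1 member call unless the share of all genes called rose to 15% or more. Normexp correction called 0 members (1.36% of genes higher, 1.44% lower), as did the fit without a filter (0.579% and 0.0833%) and that on genes above background on all arrays (2.27% and 2.64%). Quantile normalization called Atg10 higher (2.24% and 2.9%), as did centring on the median (3.29% and 1.82%) and the mean over probes (2.41% and 1.86%). Array weights called 8 members higher and 17 lower (31.7% and 31.2%). The authors' deposited table gave Atg10 higher and Atg13, Sqstm1, Atg4a and Map1lc3b lower (15% and 15.7%). Of the other single arrays left out, none gave a member call: these fits called 0.0136% of genes higher and 0% lower when saline 1 was dropped, and 0.374% and 0.0204% when it was saline 2. Dropping rhTM 1 left 0% and 0% (limma, with 1271 and 1314 genes at an unadjusted p under 0.05), dropping rhTM 2 left 0.0136% and 0%, and dropping rhTM 3 left 2.6% and 3.48%.

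**Figure D1:**
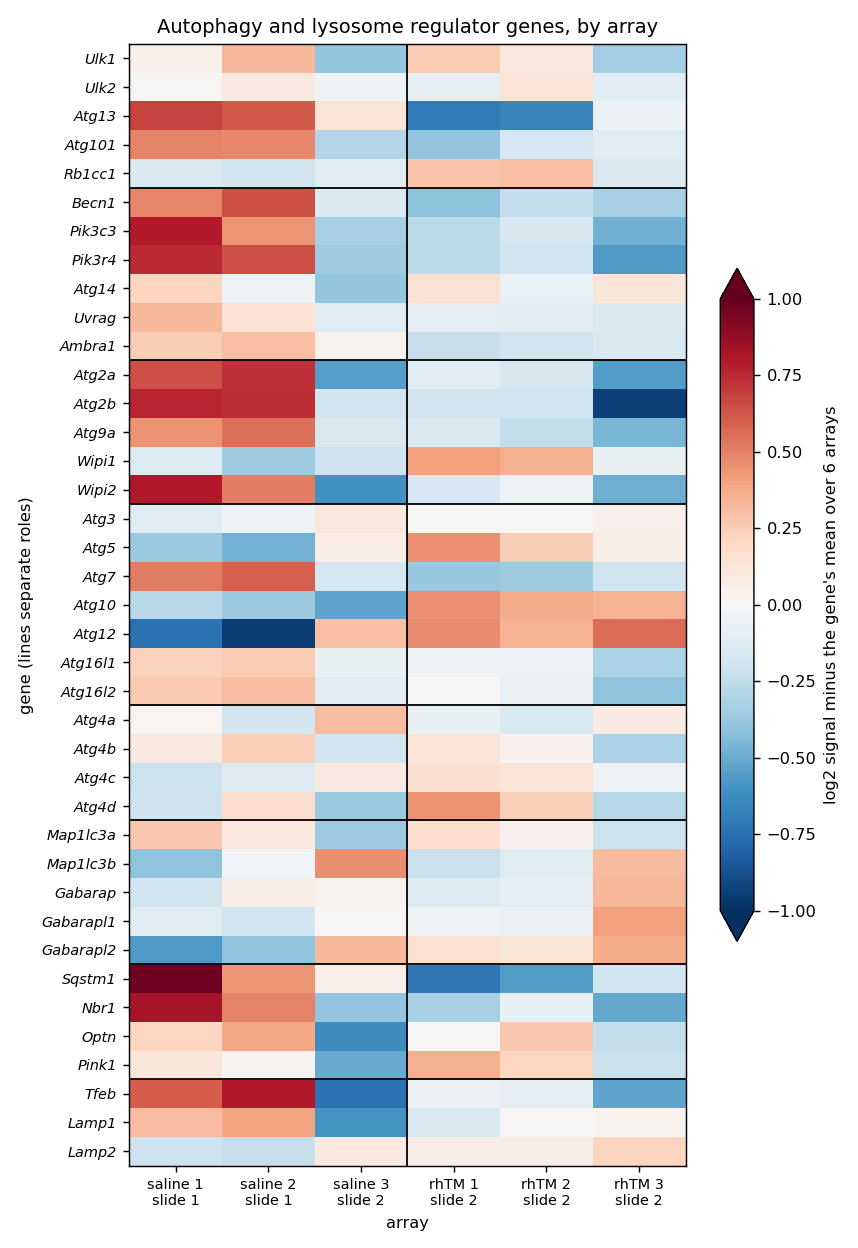
Log2 signal of the 39 genes on each array, as the deviation from the gene's mean over 6 arrays (colour, from -1 to 1), with genes grouped by role and arrays labelled by slide. Saline 3 lay nearer the rhTM mean than the mean of saline 1 and 2 in 33 of 39 genes. It lay between these means in 15 of 39 genes.

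In 33 of 39 members (84.6%) saline 3 lay nearer the mean of the rhTM arrays than that of saline 1 and 2, a position found in 56.2% of all genes tested. This includes genes in which saline 3 lay beyond both means. It lay between these means in 15 members (38.5%, against 34.5% of genes). The median gap between saline 3 and the mean of the other saline arrays was 0.55 in size, against 0.57 over all genes tested. In members and in all genes it was larger than the median difference between the treatments (0.30 and 0.46). The gap sets 1 array against the mean of 2, whereas the treatment difference sets 2 means of 3 against each other. A larger gap would therefore arise from the spread between arrays alone. Saline 3 was below the mean of saline 1 and 2 in 27 members (69.2%, against 50.6% of genes). In 31 members (79.5%, against 58.8% of all genes) this gap exceeded the gene's own difference between rhTM and saline. Against saline 3 alone, 23 members kept the sign they had against all saline arrays, or 59% compared with 73.5% of genes. Of the 23 members lower against all saline hearts, 11 were also lower against saline 3 and 12 were not. Of the 16 higher ones, 12 were also higher against it. Saline 3 differs from the other saline mice by slide and animal at once, which cannot be told apart.

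**Figure D2:**
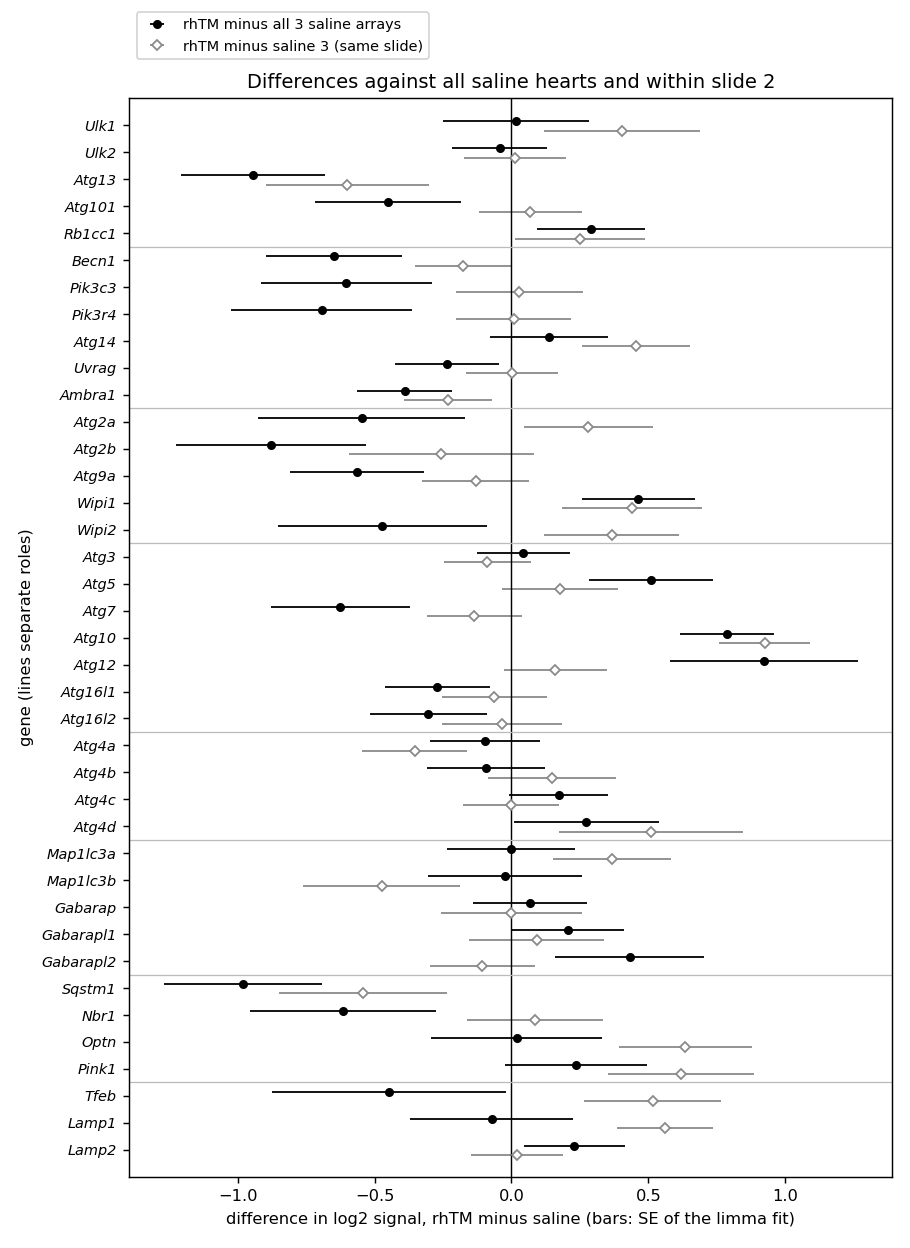
Difference in log2 signal of each gene, rhTM minus saline, against all 3 saline arrays (filled circles) and against saline 3 on the same slide (open diamonds), with the SE of the limma fit as bars. Atg10 lies to the right on both measures, while Pik3c3, Pik3r4 and Uvrag have negative circles and diamonds near 0.

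The conjugation enzymes held the member with the smallest p. Atg10 is the E2-like enzyme that joins Atg12 to Atg5, and it lay higher in rhTM hearts. Saline 1, 2 and 3 read 0.53, 0.43 and 0.27, whereas rhTM 1, 2 and 3 read 1.27, 1.18 and 1.15. The 3 rhTM arrays all lay above the 3 saline arrays, and saline 3 was the lowest of all. The difference was 0.79 ± 0.17, or 1.73-fold, and narrowly missed the threshold (adjusted p = 0.0521). Against saline 3 alone it was 0.92 ± 0.16, a call in the fit blocked by slide (adjusted p = 0.0433). The fit blocked by replicate number made no call (adjusted p = 0.0654).

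A further probe of Atg10 gave the same order of arrays between the groups. Saline 1, 2 and 3 read -0.86, -0.88 and -0.69 on it, whereas rhTM 1, 2 and 3 read 0.91, 0.76 and 0.37. In a fit over all 30322 probes above background this probe was called higher (1.49 ± 0.22, adjusted p = 0.0289), the only one of 61 member probes tested to pass, where 2.24% of all probes were called higher and 1.33% lower. Blocking by slide kept the call (1.37, adjusted p = 0.0483), in a fit that called 3.3% of probes higher and 1.41% lower. Blocking by replicate number did not (adjusted p = 0.0560), in a fit that called 0.768% higher and 0.356% lower. Both Atg10 probes thus had the same sign against all saline hearts and against saline 3.

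Its substrate behaved differently across the slides. Atg12, the ubiquitin-like protein that Atg10 transfers, lay at 2.38, 2.18 and 3.42 in saline 1, 2 and 3 and at 3.60, 3.47 and 3.68 in rhTM 1, 2 and 3. Saline 3 was close to the rhTM arrays and more than 1 unit above the other saline arrays. The difference of 0.92 ± 0.34 (adjusted p = 0.134) shrank to 0.16 ± 0.19 against saline 3. Atg7, the E1-like enzyme that activates both Atg12 and the Atg8 proteins, lay at 1.45, 1.53 and 0.75 in saline and at 0.55, 0.57 and 0.73 in rhTM arrays. Its groups did not overlap, but saline 3 stood only just above rhTM 3. The difference was -0.62 ± 0.25 (adjusted p = 0.154), or -0.14 ± 0.17 against saline 3.

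Atg5, the acceptor of Atg12, lay at 1.31, 1.21 and 1.76 in saline 1, 2 and 3 and at 2.14, 1.93 and 1.74 in rhTM 1, 2 and 3. Its groups overlapped, since rhTM 3 lay just below saline 3 (0.51 ± 0.22, adjusted p = 0.180). Atg3, the E2-like enzyme that loads Atg8 proteins onto lipid, differed by 0.04 ± 0.17, with a 95% interval of -0.36 to 0.45. The scaffold of the conjugate, Atg16l1 (-0.27 ± 0.19), and its paralogue Atg16l2 (-0.30 ± 0.21) did not pass either. Of the 7 conjugation genes, 4 lay higher and 3 lower, with a median of 0.04.

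**Figure D3:**
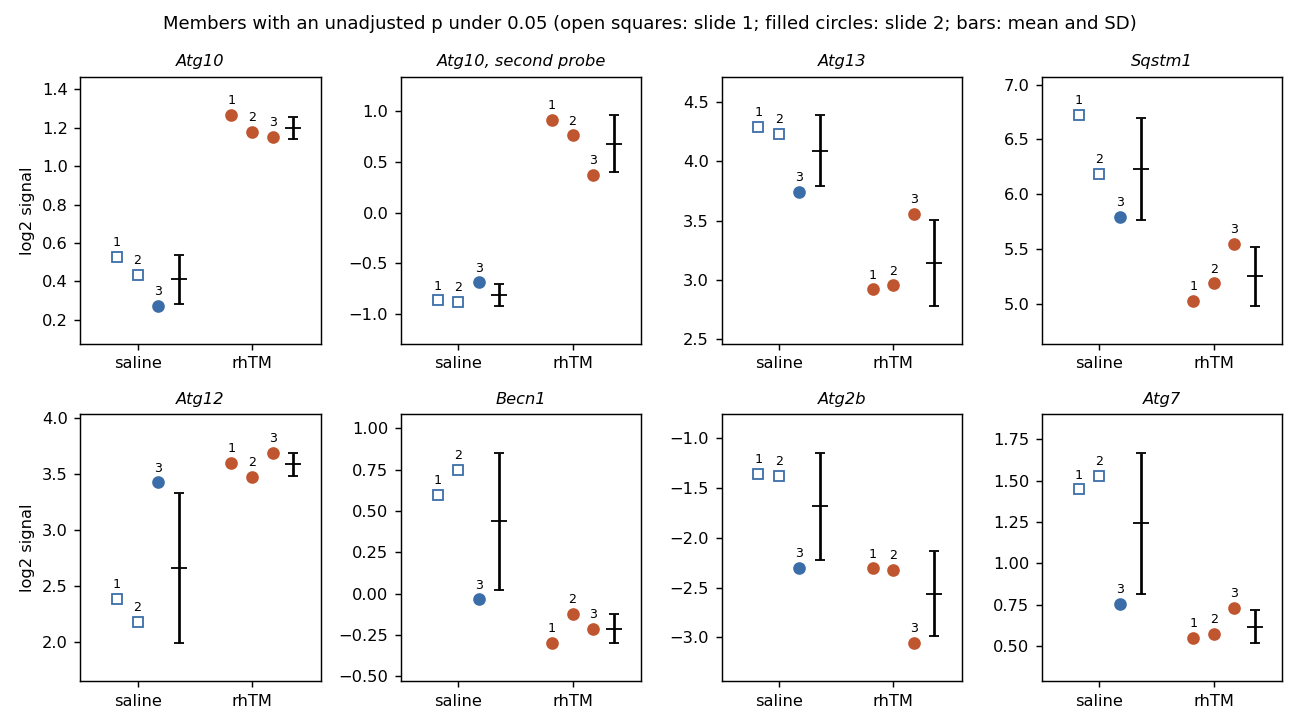
Log2 signal by array of the members with an unadjusted p under 0.05 in limma, and of the other Atg10 probe, in saline (blue) and rhTM hearts (orange). Numbers are the labels' replicate numbers, open squares are arrays of slide 1, and bars give the mean and SD (n = 3). Both Atg10 probes separate the groups widely, whereas saline 3 of Atg12, Becn1, Atg2b and Atg7 sits beside the rhTM arrays.

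Among the initiation kinase genes, Atg13 had the largest difference. It encodes the adaptor that ties ULK1 to its scaffold and is a target of mTORC1. Atg13 lay at 4.29, 4.23 and 3.75 in saline 1, 2 and 3 and at 2.92, 2.96 and 3.56 in rhTM 1, 2 and 3. The groups did not overlap, yet saline 3 and rhTM 3 were close to each other while the other arrays were over 1 unit apart. The difference was -0.94 ± 0.26 (adjusted p = 0.0820), or -0.60 ± 0.30 against saline 3. Without saline 3, which leaves only saline arrays of the other slide, it was called (-1.12, limma adjusted p = 0.0178).

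On their brightest probes the kinases themselves showed no such gap. Ulk1 lay at 3.99, 4.26 and 3.55 in saline and at 4.20, 4.05 and 3.60 in rhTM arrays, with overlapping groups. Its difference was 0.02 ± 0.27, with a 95% interval of -0.62 to 0.66. Ulk2 differed by -0.04 ± 0.17, but its other probe differed by -0.69 ± 0.34, and by 0.02 against saline 3. Atg101, which stabilises Atg13, differed by -0.45 ± 0.27 and by 0.07 ± 0.19 against saline 3. Rb1cc1, the scaffold FIP200, had 6 probes tested, which differed by -0.39 to 0.47, so that no direction can be given for it.

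The lipid kinase complex makes the phosphoinositide that marks the forming autophagosome. All 6 of its members had saline 3 nearer the rhTM mean, a position found in 56.2% of all genes tested. In Atg14, however, saline 3 was the lowest array (-0.83), and the rhTM mean differed by only -0.02 from that of saline 1 and 2. The median of the 6 members was -0.50 against all saline hearts and 0.00 against saline 3. Becn1, the regulatory subunit beclin 1, lay at 0.60, 0.75 and -0.04 in saline 1, 2 and 3 and at -0.30, -0.12 and -0.21 in rhTM 1, 2 and 3. The groups were apart by a narrow margin, and its difference of -0.65 ± 0.25 (adjusted p = 0.141) was -0.18 ± 0.18 against saline 3. Pik3c3, the catalytic subunit VPS34, differed by -0.60 ± 0.31, and Pik3r4, its VPS15 partner, by -0.69 ± 0.33. Against saline 3 these were 0.03 ± 0.23 and 0.01 ± 0.21. Ambra1, an activator of the complex, kept more of its difference (-0.39 ± 0.17, and -0.23 ± 0.16 against saline 3), and its groups did not overlap. Atg14 (0.14 ± 0.22) and Uvrag (-0.24 ± 0.19), which direct the complex to autophagosomes or endosomes, did not pass.

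Of the genes that supply membrane, Atg2b had a difference that its probes did not share. ATG2 proteins carry lipid from the endoplasmic reticulum to the growing membrane. The brightest Atg2b probe lay at -1.36, -1.38 and -2.30 in saline 1, 2 and 3 and at -2.31, -2.32 and -3.05 in rhTM 1, 2 and 3, where saline 3 and rhTM 1 and 2 nearly coincided. It differed by -0.88 ± 0.35 (adjusted p = 0.149), while another tested probe of the gene differed by 0.30 ± 0.31. Atg2a differed by -0.55 ± 0.38, and by 0.28 ± 0.24 against saline 3. Atg9a, the scramblase of the seed vesicles, differed by -0.56 ± 0.24 (-0.13 ± 0.19 against saline 3). Wipi1, a reader of the phosphoinositide mark, lay higher in every rhTM than in any saline array (0.46 ± 0.21, adjusted p = 0.183; 0.44 ± 0.26 against saline 3), but its other probe differed by -0.23 ± 0.43. Wipi2, the reader that recruits Atg16l1, differed by -0.47 ± 0.38 and by 0.37 ± 0.25 against saline 3.

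In the Atg8 family, the proteins conjugated to the membrane, differences ran from -0.02 to 0.43 against all saline hearts. Map1lc3b, the gene of the marker LC3B, lay at 6.57, 6.94 and 7.43 in saline 1, 2 and 3 and at 6.74, 6.85 and 7.28 in rhTM 1, 2 and 3. Both groups spanned nearly the same range, with the array numbered 3 highest in each. The difference was -0.02 ± 0.28, with a 95% interval of -0.70 to 0.65. Against saline 3 it was -0.47 ± 0.29, and its other probe differed by -0.43 ± 0.23. Map1lc3a lay at 5.45, 5.29 and 4.82 in saline and at 5.35, 5.23 and 4.97 in rhTM arrays, where the arrays numbered 3 were the lowest (0.00 ± 0.23, and 0.37 ± 0.22 against saline 3).

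Gabarap lay at 5.51, 5.78 and 5.74 in saline 1, 2 and 3 and at 5.57, 5.62 and 6.04 in rhTM 1, 2 and 3 (0.07 ± 0.21). Gabarapl1 lay at 5.35, 5.27 and 5.48 in saline and at 5.42, 5.41 and 5.88 in rhTM arrays (0.21 ± 0.21). Gabarapl2 lay at 4.41, 4.57 and 5.30 in saline and at 5.13, 5.10 and 5.35 in rhTM arrays (0.43 ± 0.27). In each of these GABARAP-type genes the groups overlapped, and Gabarapl2 repeated the position of saline 3 beside the rhTM arrays. Against saline 3, Gabarap, Gabarapl1 and Gabarapl2 differed by 0.00 ± 0.26, 0.09 ± 0.25 and -0.11 ± 0.19. Adjusted p-values in the family ran from 0.310 for Gabarapl2 to 0.994 for Map1lc3a. The Atg4 proteases, which trim Atg8 proteins before conjugation and release them afterwards, were as close. Atg4a, Atg4b, Atg4c and Atg4d differed by -0.10 ± 0.20, -0.09 ± 0.22, 0.17 ± 0.18 and 0.27 ± 0.26. A dimmer Atg4b probe differed by more (-1.01 ± 0.27, adjusted p = 0.0833 over probes).

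Sqstm1 had the largest difference of the cargo receptors and of all members. It encodes p62, which binds ubiquitinated cargo and LC3, is itself consumed by autophagy, and is also induced by the stress regulator NRF2. Saline 1, 2 and 3 read 6.72, 6.19 and 5.80, whereas rhTM 1, 2 and 3 read 5.03, 5.19 and 5.55. All rhTM arrays lay below all saline arrays, and across the groups the arrays numbered 3 were again the closest pair. The difference of -0.98 ± 0.29, or 1.97-fold lower, did not pass (adjusted p = 0.0903), nor did -0.54 ± 0.31 against saline 3 (adjusted p = 0.283). A further Sqstm1 probe lay lower in the same way (-0.86 ± 0.28, adjusted p = 0.115 over probes), without overlap of the groups. Without saline 3, which leaves only saline arrays of the other slide, the gene was called (-1.20, limma adjusted p = 0.0159).

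Of the remaining receptors and the mitophagy kinase, only Nbr1 lay lower like Sqstm1, and it did not against saline 3. Nbr1, the related receptor of ubiquitinated aggregates, differed by -0.61 ± 0.34, and by 0.09 ± 0.25 against saline 3. Optn, the receptor optineurin, differed by 0.02 ± 0.31, and by 0.64 ± 0.24 against saline 3 (adjusted p = 0.154). Pink1, the kinase that marks damaged mitochondria, lay at 5.55, 5.45 and 4.92 in saline 1, 2 and 3 and at 5.79, 5.64 and 5.21 in rhTM 1, 2 and 3. Its groups overlapped (0.24 ± 0.26, adjusted p = 0.552), saline 3 was the lowest array, and its other probe differed by -0.27 ± 0.46.

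Tfeb, the regulator of lysosomal genes, was lowest in saline 3 and highest in saline 1 and 2. Its brightest probe lay at -0.05, 0.14 and -1.40 in saline 1, 2 and 3 and at -0.72, -0.74 and -1.19 in rhTM 1, 2 and 3. The saline arrays spanned the whole range of the rhTM arrays. The difference was -0.45 ± 0.43 (adjusted p = 0.495) against all saline hearts and 0.52 ± 0.25 (adjusted p = 0.226) against saline 3, so that its sign depended on the saline array, and the other 3 probes differed by 0.04 to 0.18.

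Lamp1 encodes an abundant lysosomal membrane protein, and its promoter held 4 E-boxes. Its brightest probe lay at 6.68, 6.78 and 5.78 in saline and at 6.23, 6.39 and 6.41 in rhTM arrays. Saline 3 was again the lowest array (-0.07 ± 0.30, adjusted p = 0.887, with 0.56 ± 0.17 against saline 3, adjusted p = 0.107). The other Lamp1 probe differed by -0.37 ± 0.25, and by only 0.07 against saline 3, and on it rhTM 1 was the lowest array. Lamp2, needed for fusion of autophagosomes with lysosomes, lay at 3.39, 3.37 and 3.69 in saline and at 3.66, 3.66 and 3.82 in rhTM arrays. Its groups overlapped, with a difference of 0.23 ± 0.18 (adjusted p = 0.416). The other members with an E-box before the start did not share a direction, since Atg3, Atg5 and Atg7 differed by 0.04, 0.51 and -0.62.

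Several kept probes read 19 of the members, and 61 of 65 kept probes could be tested, which left 16 members with more than 1 tested probe. In 8 of these 16 genes all tested probes had the same sign and in 8 they did not. Sqstm1, Atg7 and Atg10 were the members with an unadjusted p under 0.05 whose tested probes all shared a sign, Atg2b was the one with mixed signs, and Atg13, Becn1 and Atg12 had 1 probe each. A difference from a single probe has no such check within the array.

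**Figure D4:**
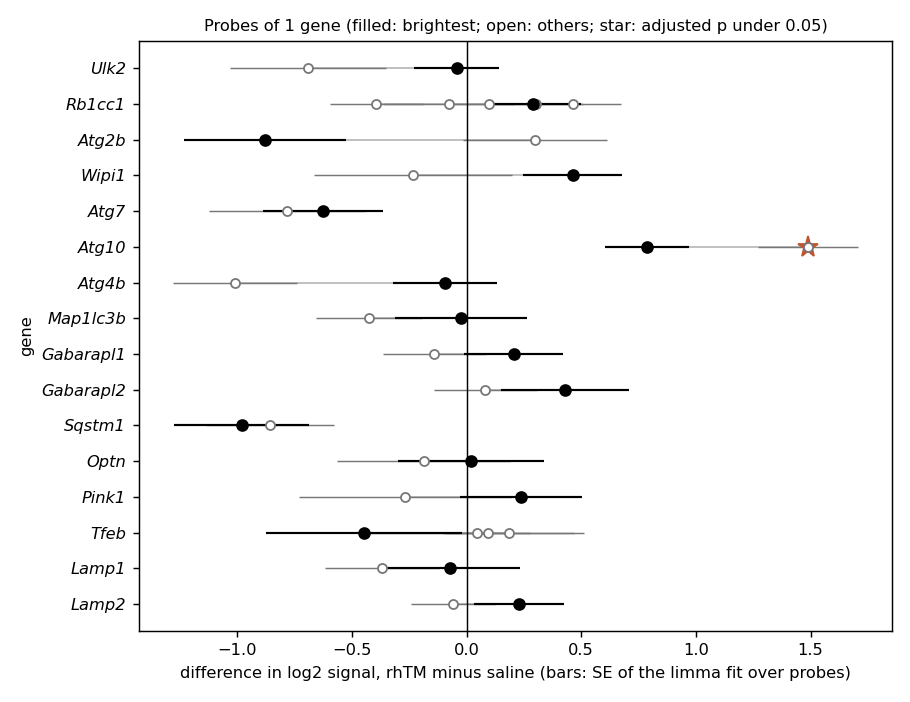
Difference in log2 signal, rhTM minus saline, for each tested probe of the 16 members with more than 1, with the SE of the limma fit over probes. Filled circles mark the brightest probe, and the star marks the Atg10 probe that passed (1.49 ± 0.22). Probes of Tfeb, Atg2b, Wipi1 and Pink1 fall on both sides of 0.

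Related genes outside the set were read from 8 lists of lysosomal and autophagy genes. Of 153 genes listed 147 were tested, and limma called 2 higher and 1 lower, or 2.04% in all. Over all genes 2.75% were called higher and 2.41% lower, so the lists held a smaller share of calls. The calls lay among selective receptors, early factors and lysosomal channels. Wdfy3, an adaptor for aggregate clearance, rose by 0.92 ± 0.18 (adjusted p = 0.0433), and blocking by slide kept the call (adjusted p = 0.0490). Ccpg1, a receptor for autophagy of the endoplasmic reticulum, rose by 0.82 ± 0.17 (adjusted p = 0.0457). Tpcn2, a cation channel of the lysosome membrane, fell by 1.38 ± 0.25 (adjusted p = 0.0417). Blocking by slide ended the calls of Ccpg1 and Tpcn2 (limma adjusted p 0.0524 and 0.0867), while their differences of 0.86 and -1.10 against saline 3 kept their direction and much of their size. Blocking by replicate number ended all 3 calls (limma adjusted p from 0.0554 to 0.0617). The fit blocked by slide called 3 genes higher and 2 lower among the 147 (3.4%), where it called 3.83% of all genes higher and 1.95% lower. The listed genes called were Wdfy3, Sesn1 (2.71 against saline 3, adjusted p = 0.0211), Ppargc1a, Nfe2l2 and Atf4. Of these, Sesn1 and Atf4 were named after their values were seen.

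The lysosomal hydrolases had a median of -0.10, with 18 of 29 lower and 0 called. Among those with the smallest p-values was Neu1, a sialidase (-0.62 ± 0.19, adjusted p = 0.0986). Subunits of the V-ATPase, the proton pump that acidifies lysosomes, had a median of -0.27, with 11 of 17 lower and 0 called. Tcirg1 (-0.84 ± 0.25), Atp6v0d1 (-0.70 ± 0.21) and Atp6v0a1 (-1.15 ± 0.35) led that list without passing. In the 14 tested lysosomal membrane genes the median was -0.20, and Tpcn2 was followed by Sidt2 (-1.08 ± 0.29, adjusted p = 0.0786) and Scarb2 (adjusted p = 0.0889), both lower in all rhTM arrays. Genes of autophagosome fusion with the lysosome had the lowest median of the 8 lists, -0.41, with 14 of 16 lower and 0 called, and -0.25 against saline 3. Rab7, the GTPase of late endosomes (-0.98 ± 0.24, adjusted p = 0.0651), Epg5 (-1.11 ± 0.35) and Vps11 (-1.27 ± 0.41) had its smallest p-values.

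Genes of mTORC1, AMPK and nutrient sensing had a median of 0.05, with 16 of 30 higher and 0 called. Sesn3, a restrainer of mTORC1, differed by 0.97 ± 0.22 (adjusted p = 0.0569), and Mtor itself by -0.85 ± 0.28 and Rraga by -0.52 ± 0.17. Among mitophagy receptors, 8 of 10 lay lower (median -0.14) and 0 were called. Fundc1, a mitophagy receptor of the outer mitochondrial membrane, lay the other way and narrowly missed the threshold (0.90 ± 0.19, adjusted p = 0.0507; 0.94 against saline 3). Fkbp8, another receptor, differed by -0.59 ± 0.24. Wdr45b, a reader like Wipi2, differed by -0.78 ± 0.23 in the list of other receptors and early factors, whose median was -0.26.

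Transcriptional regulators of autophagy had a median of 0.19, with 8 of 13 higher and 0 called, and the median was 0.54 against saline 3. Nfe2l2, which encodes NRF2, a known activator of Sqstm1, lay at 3.52, 3.12 and 3.72 in saline 1, 2 and 3 and at 2.56, 2.64 and 2.59 in rhTM 1, 2 and 3. All rhTM arrays lay below all saline arrays (-0.86 ± 0.21, adjusted p = 0.0659), and the fit blocked by slide called it (-1.12, adjusted p = 0.0484). Mitf, a relative of Tfeb, differed by 0.70 ± 0.25. Ppargc1a, a coactivator of mitochondrial genes, differed by 1.32 ± 0.55 (adjusted p = 0.161), and the fit blocked by slide called it (2.61, adjusted p = 0.0261). Saline 3 read 0.62 for it, where saline 1 and 2 read 2.52 and 2.58. Atf4, a stress-response factor, was also called in that fit (-0.97 against saline 3, adjusted p = 0.0411), with a difference of -0.28 ± 0.32 against all saline hearts. The fit blocked by replicate number called none of Nfe2l2, Ppargc1a and Atf4 (limma adjusted p 0.0794, 0.0815 and 0.457).

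**Figure D5:**
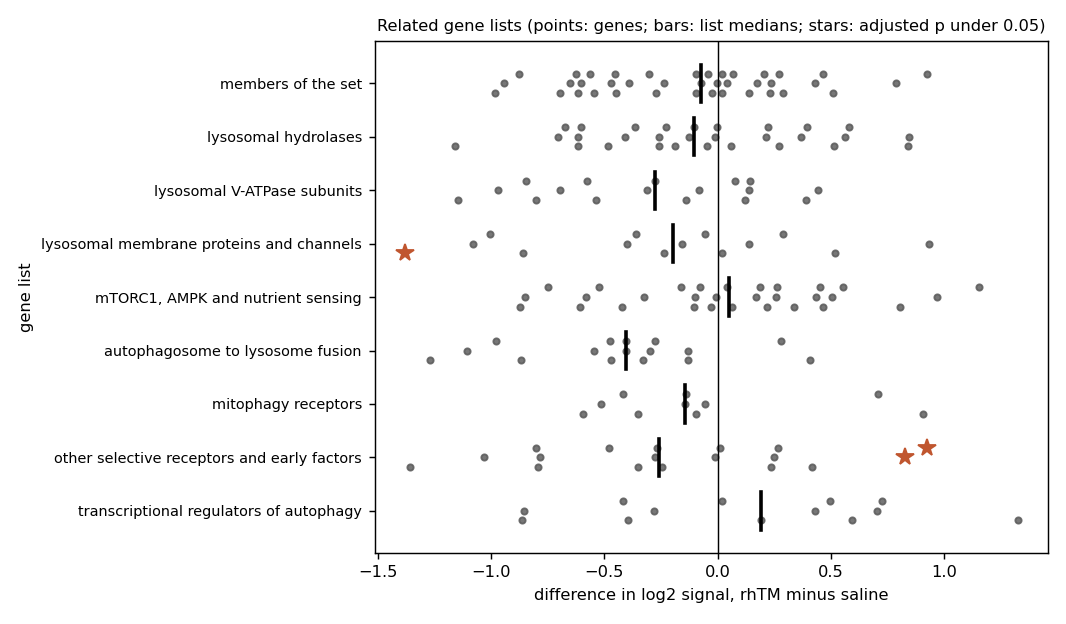
Difference in log2 signal, rhTM minus saline, of the 39 members and of the genes tested in 8 related lists (points), with list medians (bars) and calls at an adjusted p under 0.05 (stars). The members hold no star, and the fusion list has the lowest median (-0.41).

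Markers of heart cells and of blood cells were read in the same hearts, and limma called 1 cardiomyocyte and 1 neutrophil marker and 0 of the other lists. Of 12 neutrophil markers tested (of 14 listed) 11 lay lower and 1 was called lower. Their mean level was 0.31 to 3.07 in saline and -3.40 to 1.54 in rhTM arrays, highest in the arrays numbered 3. The marker called was Cd177, which was well above background on 3 arrays only, those of the saline group. It thus passed the filter through the group where it was higher, and its rhTM values (-7.07 to -6.40) were not well above background. Macrophage markers ranged from 0.98 to 1.81 in saline and from 1.23 to 1.85 in rhTM arrays, with 7 of 13 higher. Cardiomyocyte markers ranged from 6.14 to 7.33 and from 6.98 to 7.56, lowest in saline 3, with 11 of 14 higher and 1 called higher. Endothelial markers ranged from 1.82 to 2.21 and from 1.80 to 2.00, with 8 of 10 lower, and fibroblast markers from 2.52 to 2.81 in saline and up to 2.97 in rhTM arrays, with 5 of 9 lower. Of 10 T and NK cell markers, Cd3g and Cd8a were not well above background on any array, and the mean of the 8 tested ranged from -3.14 to -1.97 and from -2.43 to -0.74. The part of these cells in the member values was not tested.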

How the data were processed

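One-colour Agilent arrays of 6 hearts were used, 3 saline and 3 rhTM, grouped by the sample titles. The authors deposited background-corrected spot intensity values, per the file headers by Feature Extraction 10.7.3.1, with probe positions of build mm9 (the submitters' processing notes name 9.1). The deposited log2 table was an alternative only: its baseline differs between slides, and how it was centred is unknown. Its column medians were -0.02, -0.16 and 0.10 (saline 1 to 3) and -0.08, 0.03 and 0.08 (rhTM 1 to 3).

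Processed signals were log2 transformed and set relative to each array's 75th percentile. Control spots were dropped, as were 368 of 56605 probes for outlier flags. Probes were named by transcript accession through RefSeq, GRCm38.p6 (32789 matched, 23448 did not). Each gene was read from its brightest probe and tested if that probe passed the scanner's background flag on every array of at least 1 group. The test was limma (version 3.58.1, R 4.3.3; group as only term), adjusted by Benjamini-Hochberg over all genes. Members and lists were chosen with earlier results of these data known. All members are accounted for; values by array are given for members with an unadjusted p under 0.05 and, whatever their p, for 14 named ones, and for the 3 smallest p-values of each related list differences are given. Some genes that this rule names are not reported here. The limma step was tested on simulated data without a slide gap and with changes larger than any member difference. That test therefore does not cover differences of the size reported here or the slide gap. The number of arrays limits the precision.

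Deviations from the group mean correlated between same-numbered arrays (0.319, 0.235 and 0.372 over genes). Within a group these deviations sum to 0, and differently numbered arrays were not compared. The values therefore cannot show a pairing by number. The labels name no shared litter or day, so the number is a block only in an alternative. P-values rest on the spread between these arrays, which in the saline group includes the gap between the slides as well as that between mice. In the fit blocked by slide, the saline array that shares a slide with the rhTM arrays stands alone. It adds no spread of its own, so calls in that fit do not measure variation among saline mice on that slide.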

Additional observations from a re-analysis of the deposited data

How the results depend on the processing

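Over 17 alternatives 521 of 663 member differences kept their sign and side of the threshold, and 69 changed sign. Values are given below only for sign changes of members whose difference in the reported fit was at least its own SE, whatever the SE under the alternative. Members called higher numbered 0, as against 1 (Atg10) with quantile normalization, with centring on the median, with the mean over all probes, with slide as block and from the deposited table. They numbered 8 with array weights, which gave saline 3 a weight of 0.0915, and 6 with both arrays numbered 3 left out. Members called lower numbered 0, as against 17 with array weights, 4 with the deposited table and 15 with both arrays numbered 3 left out. Leaving out 1 array gave 0 to 4 members called higher and 0 to 14 called lower, the upper ends without saline 3. The counts over all genes (405 higher, 355 lower) were 200 and 212 with normexp on spot medians, an alternative chosen after seeing the data, 132 and 19 without a filter, 4663 and 4581 with array weights, 2205 and 2314 with the deposited table, and 3948 and 3873 with both arrays numbered 3 left out. Leaving out 1 array gave 0 to 3007 higher and 0 to 2808 lower, the upper ends without saline 3, and without rhTM 1 both counts were 0 (limma, 1271 and 1314 at unadjusted p under 0.05). With the replicate block 357 and 242 genes were called and 0 and 0 members (limma, 2 and 6 at unadjusted p under 0.05), and the block changed no member's gene-level call.

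With the slide as a block 16 members changed sign, and the 9 of that kind were Atg101 (0.069), Pik3c3 (0.029), Pik3r4 (0.0080), Uvrag (0.0017), Atg2a (0.28), Wipi2 (0.37), Gabarapl2 (-0.11), Nbr1 (0.086) and Tfeb (0.52), of which Pik3c3, Pik3r4 and Uvrag ended close to 0. Lamp1, with a smaller difference in the reported fit, went from -0.07 to 0.56. With the deposited table, whose baseline differs between slides, 12 changed sign, of that kind Pik3c3 (0.026), Atg2a (0.13), Wipi2 (0.061), Atg16l2 (0.054), Gabarapl2 (-0.20), Tfeb (0.29) and Lamp2 (-0.0073). With the mean over all probes Atg2b (0.25) and Atg16l2 (0.056) did, among 5 sign changes. The causes were not tested. Atg13, Sqstm1 and Atg10 kept their sign in all 17 alternatives, between -1.32 and -0.60, -1.35 and -0.54, and 0.71 and 1.14.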
